A study of Mus musculus with 10 samples.

Results

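The SLC25 mitochondrial carriers are a family of transporters, and 29 of them were measured here in mouse liver, out of 27962 genes that the array files name. They were taken as every gene whose name in the scanner files begins with Slc25a, leaving out Slc25a13, Slc25a15 and Slc25a20, and each was read from the probe with the highest mean Cy5 signal among its probes, 50 in all. Of the 29, 28 passed the filter on dim probes and were tested. Slc25a36, a pyrimidine nucleotide carrier, was well above background on 1 of 10 arrays and was not tested. Slc25a31, the ADP/ATP carrier of the germ line, passed only just, on 4 arrays (3 KO and 1 WT), and 25 carriers passed on all 10.

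The livers came from 5 KO mice, homozygous for a knockout of the glucagon receptor gene (GCGR ko/ko, 2 males and 3 females), and from 5 WT mice (wt/wt, 3 males and 2 females). Strain, age, diet and fasting state are absent from the labels, as are the knockout allele and the cells in which it acts. Each liver's RNA was labelled with Cy5 and hybridised on a 2-colour Agilent array against Cy3-labelled Universal mouse reference RNA, a pool that served only as the common denominator. All values below are log2 ratios of liver over that reference, and each liver counts as 1 replicate. Because no dyes were swapped, a level against the reference is open to dye bias, and levels were not compared between probes.

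The targeted gene checked the labels. Gcgr averaged 0.32 ± 0.04 in KO livers and 7.99 ± 0.16 in WT livers (SD, n = 5 each). Hepatocyte markers were high in all 10 livers, with a mean over 9 tested markers of 6.88 to 7.03 in KO and 6.77 to 7.38 in WT, and 1 of the 9, the urea cycle enzyme Ass1, fell in KO (-1.20). The arrays lay on 4 slides. Slide 1 held KO 1, KO 2, WT 1 and WT 2, slide 2 held KO 3 and KO 4, slide 3 held KO 5, WT 3 and WT 4, and slide 4 held WT 5. Both WT females (WT 3 and WT 4) were on slide 3, where the only KO liver was a male, and the median net Cy5 signal was lower on slides 3 and 4 (58.7 to 78.9) than on slides 1 and 2 (112 to 134). The effects of slide and of genotype within females therefore cannot be told apart. The number of arrays limits the precision throughout.

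SLC25 proteins sit mostly in the inner mitochondrial membrane, where each carries metabolites, nucleotides, cofactors or ions between the cytosol and the matrix. They are built from repeats of the same membrane-spanning unit and usually exchange a solute on one side for another on the other side. In liver they serve gluconeogenesis, ureagenesis, lipid synthesis and oxidative phosphorylation, since parts of each of these pathways lie on both sides of the membrane. Glucagon acts on hepatocytes through its receptor and cAMP, and among other effects it raises the use of amino acids for glucose production.

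Of the 28 carriers tested, 1 rose in KO livers (Slc25a37) and 2 fell (Slc25a25 and Slc25a21) at an adjusted p under 0.05 in limma. Over all 19047 genes tested the share called was 6.06%, with 2.91% higher and 3.15% lower. The median KO minus WT difference of the carriers was -0.04, with 11 above 0 and 17 below, beside -0.0026 over all genes. A difference of more than 0.5 in size was seen for 2 carriers, or 7.14%, and for 3.88% of all genes. At an unadjusted p under 0.05 in limma there were 10 of the 28 carriers, and 3982 of all 19047 genes. The KO and WT livers did not overlap for 2 carriers, Slc25a25 and Slc25a22, both lower in KO. Over all genes 6.08% had groups that did not overlap, 3.11% with KO below WT and 2.97% with KO above. In bulk liver, fewer cells of a type and less RNA per cell cannot be told apart.

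**Figure D1:**
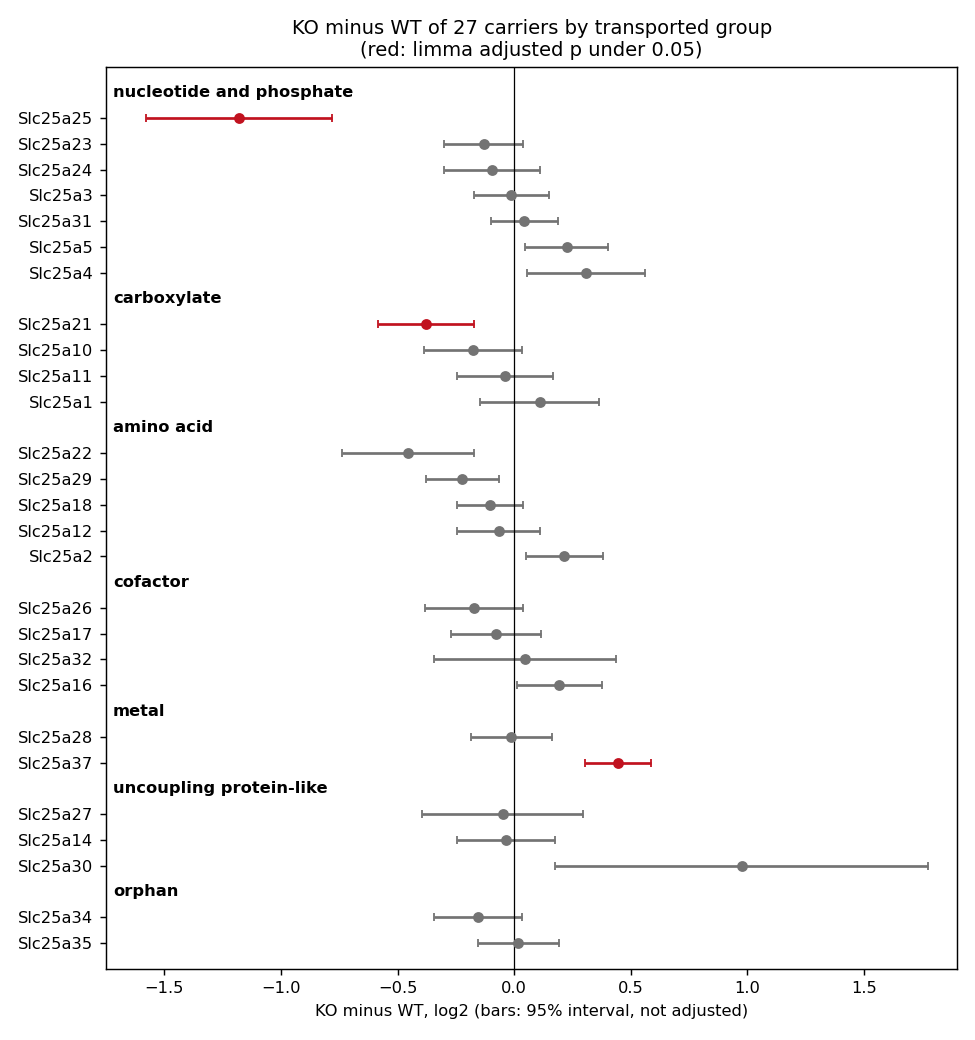
KO minus WT on the log2 scale (x axis) for 27 of the 28 tested carriers, grouped by what they transport (y axis). Points are limma estimates from the model with sex, bars are 95% intervals without adjustment for multiple tests, and red marks an adjusted p under 0.05. Slc25a25 (-1.18) and Slc25a21 (-0.38) lie below 0 and Slc25a37 (0.44) above it in red. Slc25a30 (0.98) has the widest interval.

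The nucleotide and phosphate carriers held the carrier with the largest difference. Slc25a25 is one of the calcium-regulated ATP-magnesium/phosphate carriers, which adjust the adenine nucleotide content of the matrix. The 250 bases before each of its 3 RefSeq starts are shown because they differ in whether they hold the cAMP response element (CRE), the DNA word bound by CREB, a factor that cAMP signalling activates. The windows are from RefSeq on GRCm38.p6, minus strand, written 5′ to 3′, and capitals mark the CRE.
Slc25a25 window at chr2:32451471-32451720: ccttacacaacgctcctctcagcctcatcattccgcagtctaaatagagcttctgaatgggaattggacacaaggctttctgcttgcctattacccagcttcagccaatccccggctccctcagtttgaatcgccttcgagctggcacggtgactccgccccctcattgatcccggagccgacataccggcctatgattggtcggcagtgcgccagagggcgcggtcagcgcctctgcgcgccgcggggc
Slc25a25 window at chr2:32431152-32431401: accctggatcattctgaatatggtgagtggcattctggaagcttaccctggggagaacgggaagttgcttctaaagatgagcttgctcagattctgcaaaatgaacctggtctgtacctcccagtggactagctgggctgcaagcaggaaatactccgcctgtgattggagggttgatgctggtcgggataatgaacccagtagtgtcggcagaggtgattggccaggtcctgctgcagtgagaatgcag
Slc25a25 window at chr2:32424067-32424316: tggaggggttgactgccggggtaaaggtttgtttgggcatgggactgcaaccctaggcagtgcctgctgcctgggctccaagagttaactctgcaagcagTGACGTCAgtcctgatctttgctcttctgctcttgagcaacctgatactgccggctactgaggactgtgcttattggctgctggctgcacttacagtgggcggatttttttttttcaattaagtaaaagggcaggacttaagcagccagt
The CRE (TGACGTCA) stood in the last of these windows, with its first base 150 bases before the start. It was searched on both strands and was present in 508 of 32851 such windows of all genes, or 1.55%. Among the carriers, 22 had a window (30 windows in all), and 2 of the 30 windows, of Slc25a25 and Slc25a36, held a CRE. The half-site TGACG, which lies within the CRE, was in 7 of the 30 carrier windows (6 carriers) and in 17.8% of all windows. The E-box CACGTG was in 5 of the 30 carrier windows (4 carriers) and in 6.02% of all windows. TTGCATCA, the amino acid response element, was in 0 of the 30 carrier windows and in 0.791% of all windows. Slc25a21, Slc25a22, Slc25a30, Slc25a17 and Slc25a4 had windows with no match to any of these words, and Slc25a27 and Slc25a37 had no window to search. These matches describe the letters of the windows only.

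Slc25a25 was read at chromosome 2, 32422066 to 32422125 in build mm7, the build the array files name. Its log2 ratio was 1.97, 2.27, 1.81, 2.12 and 1.41 in KO livers 1 to 5, against 2.42, 2.48, 3.65, 3.79 and 2.30 in WT livers 1 to 5. Every KO liver was below every WT liver, though the highest KO liver (2.27) and the lowest WT liver (2.30) lay close together, and the WT females stood well above the other livers. In the fit with sex, Slc25a25 was lower in KO by a log2 difference of -1.18 (SE 0.18, adjusted p = 0.00373), so that WT livers had 2.27 times the level of KO livers. Slc25a25 also differed between sexes, at 0.85 higher in females than in males (SE 0.18, adjusted p = 0.011). The sexes overlapped, with the KO females (1.81 to 2.27) among the males (1.41 to 2.48). Only the WT females, both on slide 3, lay above all males. All 3 probes of Slc25a25 passed for genotype, at -1.18, -0.91 and -0.94.

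The values of Slc25a25 were also set apart by sex. KO females averaged 2.07 and WT females 3.72, while KO males averaged 1.69 and WT males 2.40. KO minus WT was -1.65 in females (SE 0.17, adjusted p = 0.000797) and -0.71 in males (SE 0.17, adjusted p = 0.0576). The difference between these effects, -0.94 (SE 0.24), did not pass (adjusted p = 0.211 in limma). Within slide 1 KO minus WT was -0.33, or -0.49 among its males, and within slide 3 it was -2.30, where the KO liver was male and the WT livers female. With slide as a fixed block, called slide as a block from here on, the difference was -1.03 (adjusted p = 0.0142). That fit drew on slides 1 and 3 only, since slides 2 and 4 each held 1 genotype and 1 sex. On slide 3 genotype and sex changed together, so a difference within slide 3 holds both, here and for the carriers below. Only slide 1 could separate genotype from sex. The Slc25a25 difference passed in 21 of 22 alternative settings, the exception being the fit with no sex term (-1.01, adjusted p = 0.108).

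Slc25a23 and Slc25a24, the other calcium-regulated ATP-magnesium/phosphate carriers, differed by -0.13 and -0.09 and did not pass. Neither did the phosphate carrier Slc25a3 (-0.01), which supplies the ATP synthase, nor Slc25a31 (0.04). Of the ADP/ATP carriers, which exchange cytosolic ADP for matrix ATP, Slc25a5 is widely expressed and differed by 0.22 (SE 0.08, adjusted p = 0.132). Slc25a4, the form of heart and muscle, gave -3.57, -3.42, -3.11, -3.18 and -3.71 in KO livers 1 to 5, against -3.67, -3.72, -3.94, -3.71 and -3.62 in WT livers 1 to 5. The groups overlapped through KO 5, while the 3 KO females were the highest livers of all. Its KO minus WT difference of 0.31 (SE 0.12) did not pass (adjusted p = 0.147), and a second probe gave 0.26 (adjusted p = 0.0626). The first probe's difference was 0.20 within slide 1, 0.11 within slide 3, 0.17 with slide as a block (adjusted p = 0.238) and 0.20 without WT 3. In females alone it was 0.59 (SE 0.12, adjusted p = 0.0221) and in males 0.03 (SE 0.12, adjusted p = 0.927), but the difference between the sexes did not pass (adjusted p = 0.25). Striated muscle markers, of which 6 of 7 were tested, gave 0 calls, with a mean level of -1.41 to -1.31 in KO and -1.40 to -1.13 in WT, and their part in the Slc25a4 values was not tested.

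**Figure D2:**
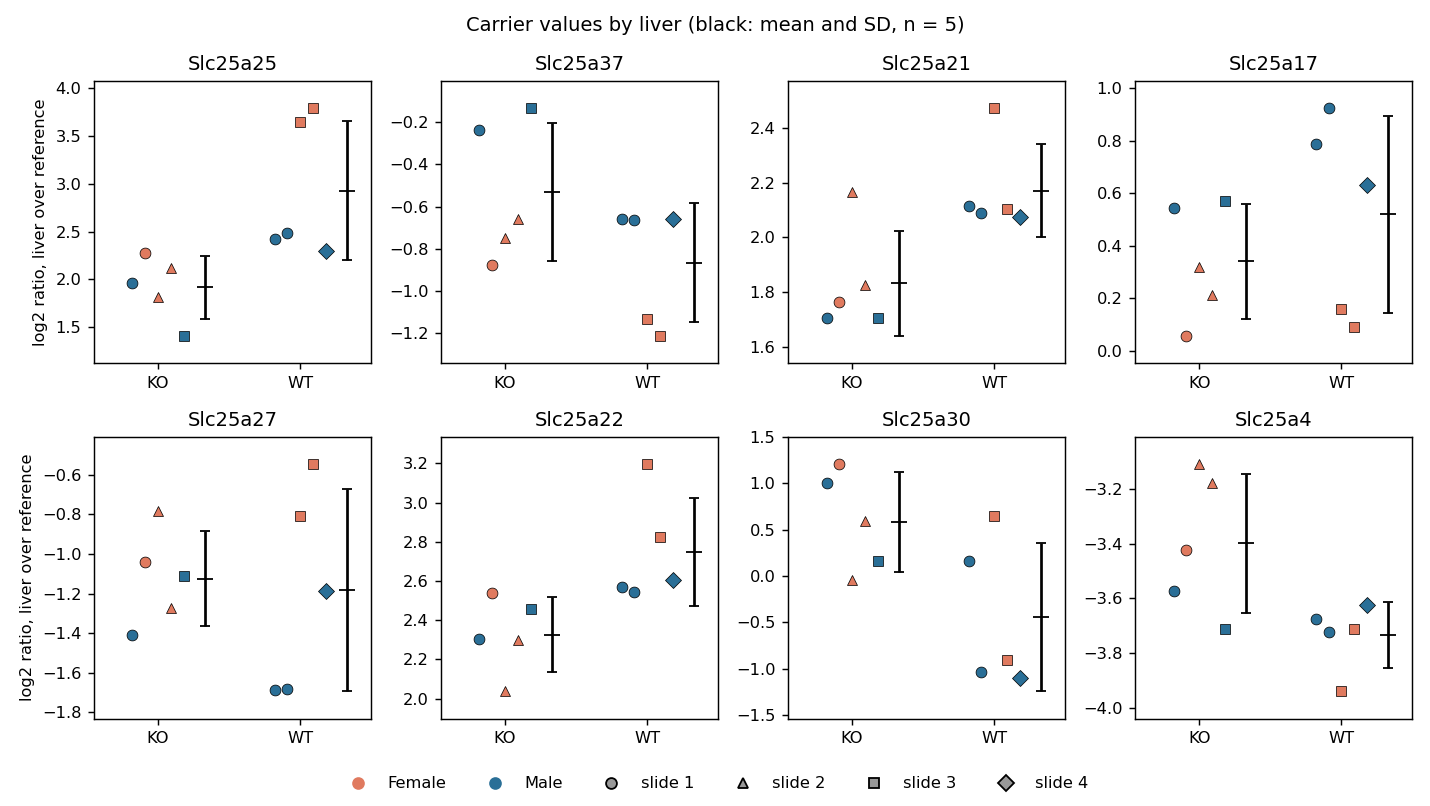
Log2 ratio of liver over reference (y axis) in each of the 10 livers for the 8 carriers described liver by liver, with KO left of WT (x axis). Colour marks sex, marker shape marks the slide, and black bars are the mean and SD of 5 livers. For Slc25a25 all KO livers lie below all WT livers, with the WT females at 3.65 and 3.79. For Slc25a37 and Slc25a17 the males lie above the females in each genotype.

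Among the carboxylate carriers, Slc25a21 fell. It is the oxodicarboxylate carrier, which takes oxoadipate from lysine and tryptophan breakdown into the matrix. It gave 1.70, 1.76, 2.16, 1.83 and 1.71 in KO livers 1 to 5, against 2.11, 2.09, 2.47, 2.11 and 2.07 in WT livers 1 to 5. The groups overlapped only through KO 3, which lay above 4 of the 5 WT livers. The difference was -0.38 (SE 0.09, adjusted p = 0.0378), with -0.37 in females and -0.39 in males, and within slides it was -0.37 on slide 1 and -0.58 on slide 3. This call was weak: it passed in 8 of 22 alternative settings, with adjusted p from 0.0184 to 0.796. With slide as a block the difference was -0.44 (adjusted p = 0.056), and with slide as a random block it was -0.39 (adjusted p = 0.0237). The call was lost when any 1 of 8 livers was left out (all but KO 3 and WT 4), at adjusted p from 0.053 to 0.128.

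The other carboxylate carriers did not pass. Slc25a1, the citrate carrier that moves citrate to the cytosol for lipid synthesis, differed by 0.11 (95% interval -0.15 to 0.36). Slc25a10, which exchanges malate and succinate for phosphate, differed by -0.18 (interval -0.39 to 0.03). Slc25a11, the oxoglutarate carrier of the malate-aspartate shuttle, differed by -0.04 (interval -0.24 to 0.16). These intervals include 0 and differences of up to the bounds given.

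Enzymes that work beside these carriers were read from the same fit. Of 4 malate-aspartate shuttle enzymes, 1 fell, Got1, the cytosolic aspartate aminotransferase, at -1.13 in KO and 1.34 in WT livers, a difference of -2.60 (SE 0.13, adjusted p = 1.97e-06). Got2, Mdh1 and Mdh2 did not pass, nor did the shuttle's carriers Slc25a11 and Slc25a12. Slc25a13, the shuttle's other aspartate/glutamate carrier, was left out above and its value is given below. Of 10 genes of citrate use and lipogenesis, 3 rose: the cytosolic malic enzyme Me1 (1.18), the desaturase Scd1 (1.24) and the acetyl-CoA carboxylase Acacb (0.72). The other 7, among them the citrate lyase Acly (-0.16), did not pass, and the list's median was 0.73 beside the citrate carrier's 0.11. Of 6 gluconeogenesis enzymes, pyruvate carboxylase Pcx rose (0.37) and G6pc fell (-0.37). The rest did not pass, among them Pck1, which had the list's largest difference (-0.67) and passed in 4 of 22 alternatives. The calls of Acacb and G6pc passed in 8 and 11 of 22 alternatives, and each was lost without WT 3, among other livers. With slide as a block Acly passed as lower in KO (-0.67, adjusted p = 0.00114), and G6pc did not pass (adjusted p = 0.0969). The carboxylase Acaca (0.55, adjusted p = 0.00681) and the elongase Elovl6 (0.59, adjusted p = 0.0141) passed as higher in that fit. Acly passed in only 1 of 22 alternatives, over which its difference ran from -0.67 to 0.067. Acaca passed in 5 of 22 and Elovl6 in 2 of 22.

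None of the 5 amino acid carriers passed. Slc25a22, a glutamate carrier, gave 2.30, 2.54, 2.04, 2.30 and 2.46 in KO livers 1 to 5, against 2.57, 2.54, 3.20, 2.82 and 2.60 in WT livers 1 to 5. Every KO liver was below every WT liver, with KO 2 and WT 2 nearly level. The difference of -0.46 (SE 0.13) had an adjusted p of 0.0626. It passed in 2 of 22 alternatives, the Cy5 channel alone (-0.55, adjusted p = 0.028) and without KO 5 (-0.55, adjusted p = 0.0424). Within slide 1 it was -0.14, within slide 3 -0.56, and with slide as a block -0.28 (adjusted p = 0.165). Slc25a29, a carrier of basic amino acids, differed by -0.22 (adjusted p = 0.0941), but its second probe gave 0.06. The ornithine carrier paralogue Slc25a2 differed by 0.22 (adjusted p = 0.121), the glutamate carrier Slc25a18 by -0.10, and Slc25a12, the aspartate/glutamate carrier of excitable tissues, by -0.07. Of the carriers left out above, which also serve amino acid and fatty acid use, the ornithine carrier Slc25a15 was at -0.90 (adjusted p = 0.00308), the aspartate/glutamate carrier Slc25a13 at -0.18 (adjusted p = 0.303) and the carnitine carrier Slc25a20 at 0.26 (adjusted p = 0.174).

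Of the metal carriers, which supply iron to the matrix for heme and iron-sulfur clusters, Slc25a37 rose. It encodes mitoferrin 1, best known from red cell precursors, and was read at chromosome 14, 64104507 to 64104566 (mm7). It gave -0.24, -0.88, -0.75, -0.66 and -0.13 in KO livers 1 to 5, against -0.66, -0.66, -1.13, -1.21 and -0.66 in WT livers 1 to 5. The groups overlapped as a whole, but within each sex every KO liver was above every WT liver. KO males averaged -0.19 and WT males -0.66, and KO females averaged -0.76 and WT females -1.17. In the fit with sex the difference was 0.44 (SE 0.065, adjusted p = 0.00287), or 1.36 times the WT level, and it was 0.41 in females and 0.48 in males.

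The rise of Slc25a37 was seen with 1 of its probes. A second tested probe, at 64107682 to 64107741 on the same chromosome, gave 0.065 (adjusted p = 0.702) and also showed no call for sex. By the first probe Slc25a37 was lower in females (female minus male -0.54). Within slide 1 that probe's KO minus WT difference was 0.11, or 0.43 among males. Within slide 3, where the KO liver was male and the WT livers female, it was 1.04. With slide as a block it was 0.42 (adjusted p = 0.0127). It passed in 20 of 22 alternatives, failing with median centring (0.56, adjusted p = 0.0568) and with no sex term (0.34, adjusted p = 0.341). Of 8 erythroid markers, 4 were tested and 0 were called for genotype, and their mean level was 4.05 to 4.83 in KO livers and 4.08 to 4.84 in WT livers. Their part in the Slc25a37 difference was not tested. Mitoferrin 2 (Slc25a28), the iron importer of most tissues, differed by -0.01 (interval -0.19 to 0.16), and 0 of 16 enzymes of heme and iron-sulfur synthesis were called.

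**Figure D3:**
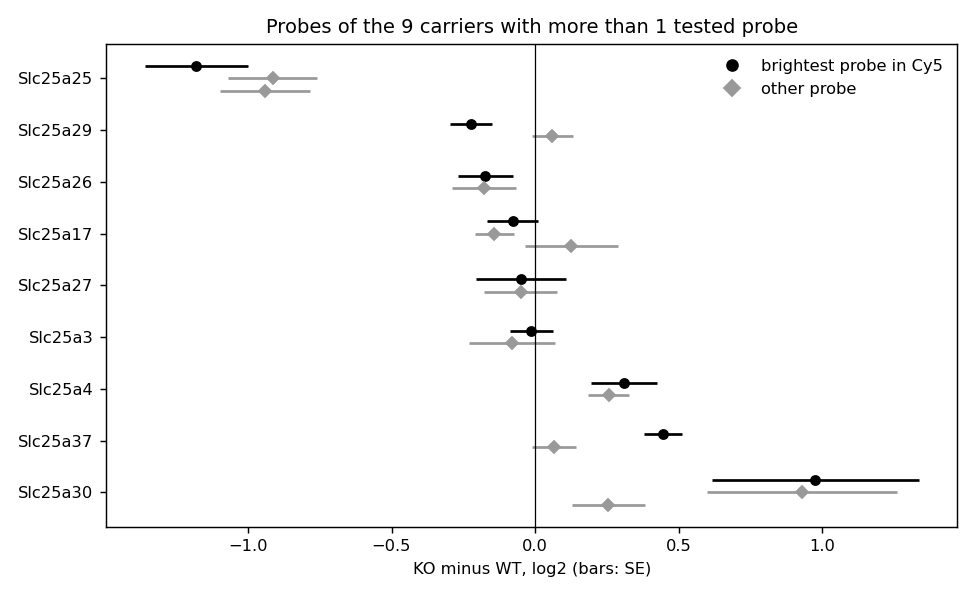
KO minus WT on the log2 scale (x axis) for each tested probe of the 9 carriers with more than 1 tested probe (y axis). Black circles are the probes used and grey diamonds the other probes, with bars of 1 SE. The 3 probes of Slc25a25 lie between -1.18 and -0.91, while the probes of Slc25a37 lie at 0.44 and 0.065.

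The 5 cofactor carriers did not pass for genotype. The coenzyme A-linked carrier Slc25a16 differed by 0.19 (adjusted p = 0.212), the S-adenosylmethionine importer Slc25a26 by -0.17, the peroxisomal carrier Slc25a17 by -0.08 and the folate and FAD carrier Slc25a32 by 0.05. Of 15 genes that make these cofactors, 2 fell, the folate enzymes Mthfd1 (-0.45) and Shmt2 (-0.39), and 0 rose. Shmt2 lost its call without KO 1, KO 4, KO 5 or WT 3. With slide as a block Mthfd1 did not pass (adjusted p = 0.0501). In that fit Mat2a, which makes S-adenosylmethionine, passed as higher (0.35, adjusted p = 0.0433) and Ppcdc, of coenzyme A synthesis, as lower (-0.31, adjusted p = 0.048). Mat2a passed in only 2 of 22 alternatives and Ppcdc in 1 of 22. The orphan carriers Slc25a34 (-0.15) and Slc25a35 (0.02) did not pass.

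The uncoupling protein-like carriers included the one with the largest standard error of the 28. Slc25a30, a relative known from kidney, gave 1.003, 1.21, -0.05, 0.59 and 0.16 in KO livers 1 to 5, against 0.17, -1.04, 0.65, -0.91 and -1.10 in WT livers 1 to 5. The KO livers mostly lay higher, but WT 3 was above 3 of the 5 KO livers, and WT 1 above 2 of them. Its difference of 0.98 (SE 0.37, interval 0.17 to 1.78) did not pass (adjusted p = 0.149), nor did it in any of 22 alternatives. Within slide 1 it was 1.54, within slide 3 it was 0.28, and with slide as a block 1.10. Its other probes gave 0.93 and 0.26, also without a call. Slc25a14 (-0.04) and Slc25a27 (-0.05), relatives known from brain, did not pass, and the sign of Slc25a27 changed in 6 of 22 alternatives. Ucp2, an uncoupling protein of the same family under another name, rose by 0.66 (SE 0.095, adjusted p = 0.00257), with KO livers at -0.54 and WT livers at -1.28.

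Sex was the other condition over which the carriers varied. At an adjusted p under 0.05, 2 carriers were higher in females (Slc25a25 and Slc25a27) and 2 higher in males (Slc25a37 and Slc25a17), while 11.6% of all genes were called, 5% higher in females and 6.57% higher in males. Slc25a17, the peroxisomal carrier of coenzyme A, FAD and NAD, gave 0.06, 0.32 and 0.21 in KO females and 0.16 and 0.09 in WT females, against 0.54 and 0.57 in KO males and 0.79, 0.92 and 0.63 in WT males. All 5 females were below all 5 males, and the female minus male difference was -0.51 (SE 0.088, adjusted p = 0.00306). Its other probes gave -0.53 and -0.39, the last without a call. Slc25a37 was lower in females by a difference of -0.54 (SE 0.065, adjusted p = 0.000253). The part of red cell precursors in that difference was not tested.

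Slc25a27 gave -1.04, -0.78 and -1.28 in KO females and -0.81 and -0.54 in WT females, against -1.41 and -1.11 in KO males and -1.69, -1.68 and -1.19 in WT males. The sexes overlapped, with 1 KO female below 2 of the males. The female minus male difference of 0.53 (SE 0.16) passed narrowly (adjusted p = 0.0495) and passed in 11 of 21 alternatives. Its other tested probe gave 0.43 (adjusted p = 0.052). For no carrier did the KO effect differ between the sexes at the threshold, and over all genes the share called was 0.0315%. The lowest adjusted p among the carriers, 0.211, belonged to Slc25a25. With slide as a block, all 4 carriers called for sex still passed. In that fit only slide 1, with KO 2 as its 1 female, could separate sex from genotype.

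**Figure D4:**
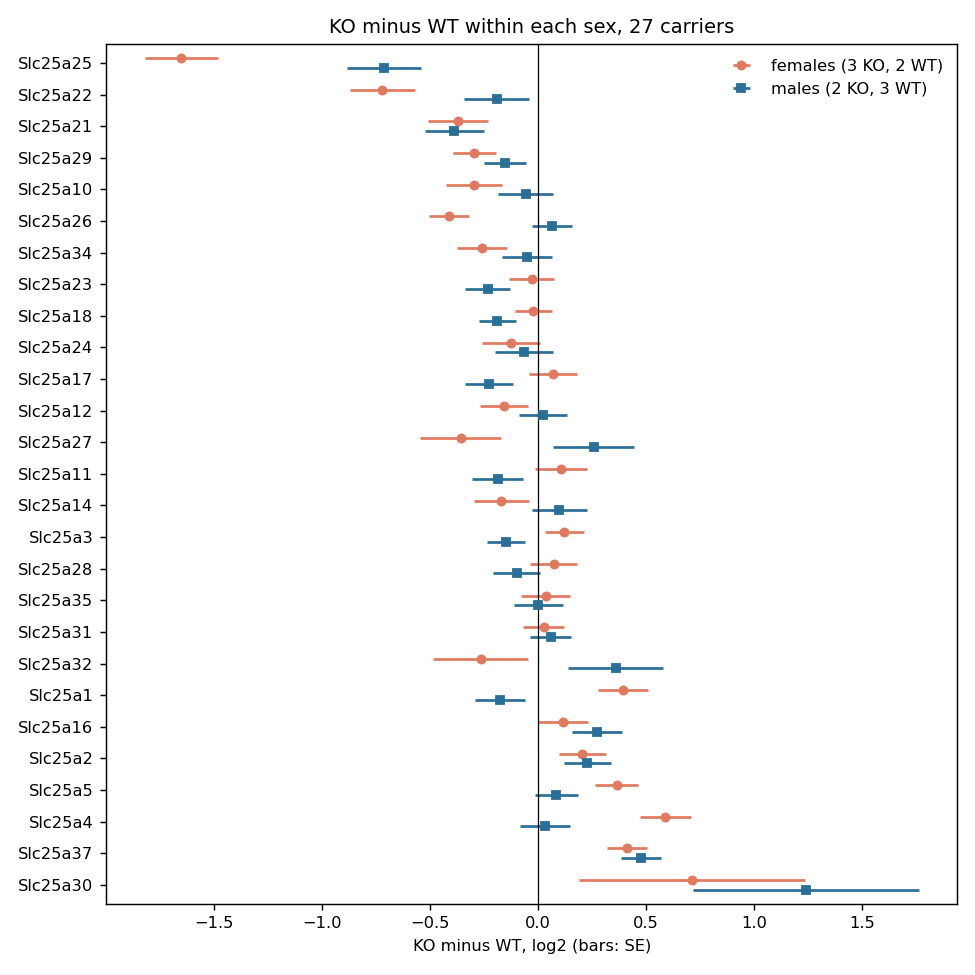
KO minus WT on the log2 scale (x axis) in females (circles) and males (squares) for 27 of the 28 tested carriers (y axis), with bars of 1 SE. Slc25a25 lies at -1.65 in females and -0.71 in males, and Slc25a37 at 0.41 and 0.48. No difference between the sexes passed.

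Genes that serve the whole family were read beside the 6.06% called over all genes. Of 13 genes that import carriers into the inner membrane, 1 fell, the small Tim chaperone Timm8a1 (-0.39, adjusted p = 0.0057), and the list's median was -0.04. Of 16 genes of the ATP synthase, which works with Slc25a3 and the ADP/ATP carriers, 1 rose, its inhibitor Atpif1 (0.32, adjusted p = 0.0336), with a list median of 0.10. Of 9 regulators of mitochondrial biogenesis, Ppargc1a, a coactivator of mitochondrial and gluconeogenic genes, fell by 0.50 and the ribosomal RNA methylase Tfb1m by 0.40. Of 21 tested genes of other mitochondrial transport proteins, 2 rose (Ucp2 and the translocator protein Tspo, 0.27) and 1 fell (the sideroflexin Sfxn2, -0.70). Ppargc1a passed in 16 of 22 alternatives and lost its call without WT 3. Atpif1, Tfb1m and Tspo passed in 8, 11 and 6 of 22. None of these 4 passed with slide as a block, at adjusted p of 0.0511 for Ppargc1a, 0.0931 for Atpif1, 0.0709 for Tfb1m and 0.0782 for Tspo. Among markers of other cells, 2 of 7 endothelial genes were higher in KO, Lyve1 (1.47) and Pecam1 (0.26, a call kept in 4 of 22 alternatives), with a mean level of 3.53 to 3.79 in KO and 2.92 to 3.37 in WT. Markers of Kupffer cells, stellate cells, bile duct, adipocytes, lymphocytes, striated muscle and pancreatic acini gave 0 calls in the fit with sex. The adipocyte gene Cfd nevertheless averaged 2.53 in KO and 0.44 in WT (difference 2.81, adjusted p = 0.0905). In the fit with slide as a block, Cfd (3.66, adjusted p = 0.044), the bile duct gene Spp1 (1.04, adjusted p = 0.000946) and the Kupffer cell gene Marco (0.88, adjusted p = 0.0256) passed as higher in KO. Cfd passed in 2 of 21 alternatives and Spp1 in 3 of 22. Marco passed in 1 of 22, over which its difference ran from -0.20 to 0.88. The part of these cells in the carrier values was not tested.

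The files hold further carriers under 16 older names, of which 13 names, for 12 carriers, were tested. Of these 12 carriers, 1 rose and 3 fell, beside the 6.06% of all genes called, and the median difference over the 13 names was -0.17. Slc25a51, the NAD importer of the matrix, is listed under a pair of names, 9130208E07Rik and Mcart1. Under the first it gave 0.75, 0.35, 0.66, 0.70 and 1.61 in KO livers 1 to 5, against 2.12, 1.67, 2.15, 1.79 and 1.73 in WT livers 1 to 5. Every KO liver was below every WT liver, with KO 5 close to the lowest WT liver, and the difference was -1.03 (SE 0.20, adjusted p = 0.0112). Under Mcart1 the difference was -0.56 (SE 0.11, adjusted p = 0.0134), with KO 5 (0.172) level with the lowest WT liver (0.173). The first name passed in 20 of 22 alternatives and Mcart1 in 17, losing its call without KO 1 or without WT 3.

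The other calls under older names were smaller. Slc25a38, the glycine importer used in heme synthesis (BC010801), averaged 1.30 ± 0.05 in KO and 1.66 ± 0.10 in WT livers, a difference of -0.36 (SE 0.068, adjusted p = 0.0105), with no overlap. Slc25a48 (AU042651), a relative of the basic amino acid carriers, averaged 0.01 ± 0.12 in KO and 0.46 ± 0.21 in WT livers, a difference of -0.41 (SE 0.096, adjusted p = 0.0279), also with no overlap. Its probe was well above background on 2 of 5 KO arrays and 5 of 5 WT arrays, so it entered the test mainly through WT and the size of its difference is uncertain. Slc25a33, a pyrimidine nucleotide carrier (5730438N18Rik), averaged 1.22 ± 0.24 in KO and 0.74 ± 0.20 in WT livers, a difference of 0.52 (SE 0.11, adjusted p = 0.0216), with overlapping groups. Slc25a38 passed in 19 of 22 alternatives, Slc25a48 in 10 of 21 and Slc25a33 in 15 of 22. Slc25a33 lost its call with slide as a block (adjusted p = 0.0709) and without KO 1, KO 4 or WT 3, and Slc25a48 without KO 1, KO 2, KO 4, KO 5, WT 2 or WT 4. Slc25a45 (AW491445), another relative of the basic amino acid carriers, differed by -0.62 and did not pass (adjusted p = 0.0513). It passed in 8 of 22 alternatives, among them the fit with slide as a block (-0.88, adjusted p = 0.00901). The liver-enriched Slc25a47 (AI132487) differed by 0.11 and did not pass.

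**Figure D5:**
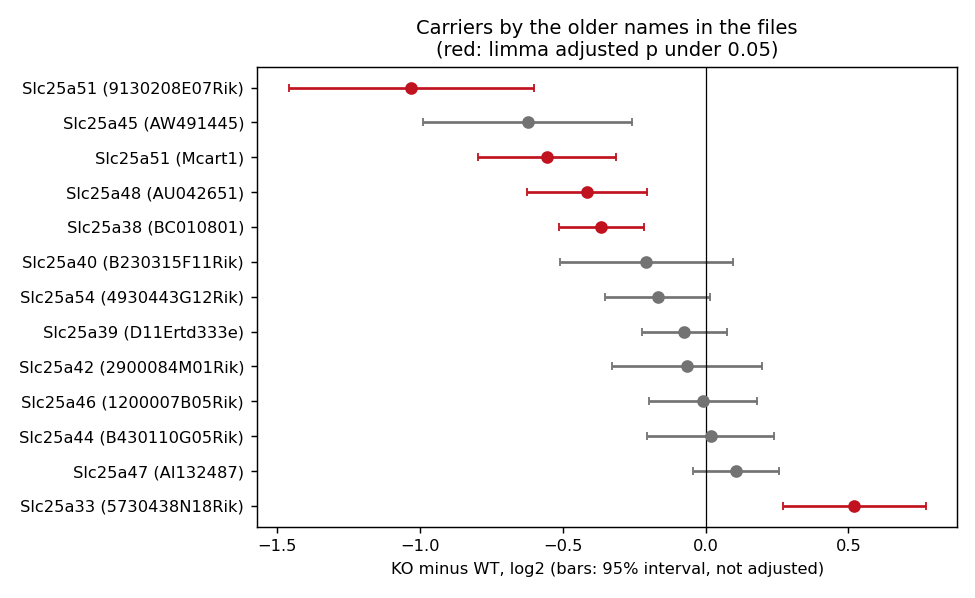
KO minus WT on the log2 scale (x axis) for the 13 tested older names, which stand for 12 carriers (y axis, current symbol with the file's name in brackets). Points are limma estimates, bars are 95% intervals without adjustment for multiple tests, and red marks an adjusted p under 0.05. Both names of Slc25a51 lie below 0, at -1.03 and -0.56, and Slc25a33 lies above it at 0.52.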

How the data were processed

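RNA from 10 mouse livers (5 KO, 5 WT) was measured on 2-colour arrays of design 014868. Per the submitters' processing notes the arrays were extracted with Agilent Feature Extraction 10.7, and per the file headers with 10.7.3.1. Per the file headers, the deposited mean and background signals are intensity values on a linear scale, and the deposited LogRatio, which enters no result, is the log10 of processed Cy5 over Cy3. The authors' deposited value table holds log2 ratios, found by setting each column against its array (correlations of 0.9994 to 0.9996). Its direction and scale followed from that, and its background correction and normalisation are not given in the sources used here. Coordinates are those of the files, in build mm7 per their headers. They were not set against gene models.

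Between 255 and 411 outlier-flagged spots an array were dropped first, of which 169 to 291 were not control spots. Signals were corrected with normexp (offset 50), log2 ratios were normalised by loess within arrays with controls at weight 0, and spots of the same probe were averaged. A probe was kept if 4 or more of the 10 arrays had it well above background in the liver channel, and 1 probe per gene entered the fit. In total 19047 genes were fitted. Some array had no value for 67 of them, none a carrier. Fits used limma 3.58.1 in R 4.3.3 with genotype and sex, or with their interaction, and Benjamini-Hochberg adjustment over all genes, with a threshold of 0.05. "Rose", "fell" and "passed" refer to that threshold, and "slide as a block" means the fixed block unless the random block is named. The script was tested on simulated data. Alternatives were the scanner's processed signals, normexp fitted before the flagged spots were dropped, median centring, the Cy5 channel alone, the authors' table, no filter, a filter on all 10 arrays, all probes, no sex term, slide as a fixed or random block, the replicate block, and each liver left out in turn.

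Current symbols came from RefSeq's GRCm38.p6 gene table (22944 probes by accession, 6664 by symbol and 3108 by synonym, with 8458 keeping the file's name). The carriers described liver by liver are those that passed for genotype or sex and the 6 with the largest difference, and genes of the partner lists are named where they passed. The values of 1 tested carrier are not reported here. The carriers and lists were chosen with earlier results of these data known. The labels do not say that a replicate number marks anything shared, so the main fit did not treat the livers as pairs. Same-numbered livers' deviations from their group means correlated at -0.43 to 0.53. Sex was left in these deviations, and the pair at -0.43 was the only one of unlike sex. The correlations therefore cannot decide whether the numbers pair the livers.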

Additional observations from a re-analysis of the deposited data

Results flagged for a closer look

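Each of the 28 carriers was checked in each genotype for a liver that stood apart from the other 4, which made 56 groups, and 4 were marked. Chance marks about 1 in 20 groups. Slc25a21 was 2.16 in KO 3, against 1.70 to 1.83 in the other KO livers, and 2.47 in WT 3, against 2.07 to 2.11 in the other WT livers, so its high liver was a female in each group. Slc25a32, the folate and FAD carrier, was 0.29 in KO 5, against -0.66 to -0.48 in the other KO livers. Slc25a35 was 0.24 in WT 4, against 0.08 to 0.11 in the other WT livers. The gap to the nearest liver, as a share of the group's range, was 0.734 and 0.900 for Slc25a21, 0.811 for Slc25a32 and 0.804 for Slc25a35, above the limit of 0.71 for 5 samples. KO 5, WT 3 and WT 4 were all on slide 3, and the cause of these gaps was not tested.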

How the results depend on the processing

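Over 22 alternative settings the number of genes called for genotype moved from 1154 to 341 when normexp was fitted before outlier spots were left out, to 285 with median centring of each array, to 630 with no sex term and to 312 with the replicate block. Leaving out each liver in turn gave 606 (without WT 3) to 1197 (without WT 5). It was 610 without KO 1 and 674 without KO 4. The share of calls higher in KO was 48.0%, against 58.4% with normexp fitted first and 71.6% with median centring. For genotype, 3 carriers were called, 1 with median centring (Slc25a25), 0 with no sex term and 2 to 4 without each liver in turn. For sex, 4 carriers were called, 1 with normexp fitted first (Slc25a37), 0 with the replicate block and 3 to 5 without each liver in turn. Only replicate 2 joined a female with a male. The sex term of the replicate block rested on that replicate alone and could hardly give a call. The replicate block kept the genotype calls of Slc25a25 and Slc25a37 (2 carriers). Whether the replicate numbers pair the livers is not known. For the interaction, 0 carriers were called in the fits with slide as a random block, with no filter and without each liver in turn. The sign of the Slc25a27 genotype difference (-0.05, not called) turned with median centring (0.036), no sex term (0.058), slide as a fixed block (0.15) and slide as a random block (0.025). It was -0.18 to 0.073 without each liver in turn, above 0 without KO 4 (0.034) or WT 4. The cause of these changes was not tested. The other 7 carriers described liver by liver kept their sign in all 22 settings. Slide and sex are unevenly spread over the groups, and 5 livers a group, with no dye swap, limit what these arrays can resolve.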
